A study of Mus musculus with 8 samples.

Results

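Cytosolic ribosomal protein genes encode the protein components of the ribosomes that translate nuclear-encoded mRNA. The 81 genes described here were all protein-coding rows of the gene table whose symbol begins with Rpl or Rps and ends in a number, alone or with a, x, l or al, together with Rplp0, Rplp1, Rplp2 and Rpsa. They were 81 of 54532 rows, 50 for the large (60S) and 31 for the small (40S) subunit, chosen by symbol and biotype. The samples were 8 whole testes of juvenile mice, 4 controls (Spdya fl/fl, called Sync-Spdya fl/fl) and 4 conditional knockouts (Spdya fl/fl;Ddx4-CreERT2, called Sync-Spdya cKO), with 1 library per mouse. All 8 mice received an inhibitor of retinoic acid synthesis and then retinoic acid, which starts the germ cells in step. All also received tamoxifen on days 7.5 and 8.5 after retinoic acid by the labels, and testes were taken on day 11.5, when spermatocytes are in mid to late pachytene. Cre was inserted at the Ddx4 locus and acts in germ cells, so somatic cells of both groups kept Spdya, which encodes an activator of CDK2. The comparison asked whether meiotic silencing of the X and Y chromosomes was disturbed in the cKO, and the ribosomal protein genes bear on it through the X-linked members.

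Ribosomal protein genes are among the most highly transcribed genes of a growing cell, their products are needed in largely equal numbers, and many of their mRNAs begin with a run of pyrimidines through which mTORC1 controls their translation. In pachytene spermatocytes the X chromosome is silenced (meiotic sex chromosome inactivation), and several X-linked housekeeping genes have autosomal copies, often made by retrotransposition, that are transcribed in male germ cells. Among ribosomal proteins, Rpl10l and Rpl39l are such copies of Rpl10 and Rpl39.

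The libraries held between 13978342 and 19583091 fragments, recovered from the deposited FPKM values (fragments per kilobase of gene, scaled to the size of the library). The control 1 library stood apart: mitochondrially encoded genes took 0.464% of its fragments, against 2.20% to 3.74% in the other 7, and each log2 fold change given for a member that it moved by over 1.5 times is also given without it. Spdya itself read between 19.7 and 23.8 FPKM in the controls and between 17.7 and 30.5 FPKM in the cKO. Only exon 2 was floxed and the value covers all exons of the gene, so it does not check the labels, and the groups are named here as labelled. Summed marker FPKM overlapped between the groups for all 9 cell types listed. The sum of 10 spermatocyte markers was 1521 to 2314 in the controls and 1305 to 1976 in the cKO. Of these markers, Hist1h1t, the gene of the H1t histone that the study stained to stage pachytene cells, stayed below 1 FPKM in every library. The sum of 8 Sertoli cell markers was 1185 to 1614 and 1550 to 1799, and that of 4 peritubular markers 44.3 to 74.1 and 73.2 to 103, and 6 of 7 spermatid markers, Prm1, Prm2, Tnp1 and Tnp2 among them, stayed below 1 FPKM in every library. In whole testis, fewer cells of a type and less RNA per cell cannot be told apart. In single-cell RNA-seq of such testes slightly later, the study found fewer spermatocytes and more spermatogonia, as percentages, in the cKO. It took this as a sign that spermatocytes were lost.

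The X-linked members and their autosomal copies are close in sequence, but stretches of 100 bases tell each pair apart over the coding sequence. They are not all separable from other annotated genes. Such genes share 83.6% of the stretches of 100 bases of Rpl36a, 68.4% of Rpl10, 34.8% of Rps4x and 1.75% of Rpl39. Over the coding sequence, Rpl10 and Rpl10l were 84.8% identical, Rpl36a and Rpl36al 87.9%, Rpl39 and Rpl39l 85.3%, and Rps4x and the Rps4l transcript 79.9%. The longest run of bases that a pair shared without a difference was 38, in Rpl39 and Rpl39l. The coding sequences of that pair, 156 bases each, are shown because Rpl39 had the smallest p-value of all members, and the 23 positions at which they differ, in capitals, are what tells coding reads of the pair apart.
Rpl39: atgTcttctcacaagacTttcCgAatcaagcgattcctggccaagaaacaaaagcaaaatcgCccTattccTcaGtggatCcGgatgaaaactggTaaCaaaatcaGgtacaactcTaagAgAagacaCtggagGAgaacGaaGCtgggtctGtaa
Rpl39l: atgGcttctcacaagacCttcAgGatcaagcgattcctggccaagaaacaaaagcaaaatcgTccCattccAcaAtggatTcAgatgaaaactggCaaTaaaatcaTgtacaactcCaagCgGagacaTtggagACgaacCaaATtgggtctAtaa

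The pyrimidine run around the start site is what ribosomal protein mRNAs are known for, and the windows of 30 bases below show, in capitals, the longest run of C and T on the coding strand within 50 bases of the annotated start (RefSeq, GRCm38.p6) for the X-linked members and 3 of the copies.
Rpl10, chrX:74270836-74270865, plus strand: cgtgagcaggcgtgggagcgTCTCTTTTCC
Rpl39, chrX:37085173-37085202, minus strand: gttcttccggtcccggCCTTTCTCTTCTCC
Rpl36a, chrX:134585672-134585701, plus strand: cggctctagCCTCTCTCTTTCCgagctgct
Rps4x, chrX:102189342-102189371, minus strand: cgcgcagcctccgaccctaaTTTCTTCgtt
Rpl10l, chr12:66284422-66284451, minus strand: ctatgaTTCCCgcaaggcttgatgggtaac
Rpl39l, chr16:10170191-10170220, plus strand: aacacccactgCCTCTCCCTagctcccagg
Rpl36al, chr12:69184020-69184049, minus strand: gctctgttcgTCCCTTTCCTgttcggcgcg

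Within the stretch searched, Rpl39 held a run of 14, Rpl36a of 13 and Rpl10 of 10 pyrimidines. They began at bases 37, 28 and 41 after the annotated start. Those of Rpl39 and Rpl10 ran to the edge of that stretch, so their full length is not shown. The longest run of Rpl10l was 5 and lay before the start, as did the run of 9 of Rpl39l. None of the runs shown lay at the annotated start itself. Promoter sequences were found for 61 of the 81 members, which had 73 annotated starts. A run of at least 8 C or T stood within 50 bases of 79.5% of these starts, against 35.7% of all 32851 mouse starts in the same windows. The members without one were Rpl10l, Rpl23, Rpl24, Rplp0, Rps13, Rps28, Rps3, Rps4x and Rpsa. Neither having nor lacking a run by this rule shows whether the mRNA begins with pyrimidines. In the 300 bases from 250 before to 50 after the start, on either strand, CCGGAAG stood in 35.6% of member starts against 8.86% of all starts, GGGCGG in 58.9% against 35.7% and TATAAA in 8.22% against 13.6%. CAAGATGGC stood in 4.11% of member starts against 1.24%, but these starts belong to 1 gene, and by gene it was 1.64% against 1.42%. These are matches of letters and not shown to be bound.

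No member passed the thresholds for a changed gene. The comparison was limma on log2(FPKM + 0.1) over 12141 protein-coding genes with a mean above 1 FPKM in both groups, which took in 80 of the 81 members, all except Rpl3l. At a Benjamini-Hochberg adjusted p below 0.05 with an absolute log2 fold change above 1, 0 of 80 members were called, against 0.0165% of all genes (2 genes), and dropping the fold change threshold left both counts as they were. At an unadjusted limma p below 0.05 there were 2 members, or 2.50%, against 10.9% of all genes tested, and both were higher in the cKO, where 5.89% of all genes were. By voom on recovered fragments the count was 8 of 80 (10%), against 10.8% of all genes, and 0 at an adjusted p below 0.05. Every library of one group lay above every library of the other in 3 members (3.75%), against 6.24% of all genes tested, and these 3 were all higher in the cKO, where 3.64% of all genes were.

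The fold changes leaned to the side of the cKO. The log2 fold change was above 0 in 66 of 80 members (82.5%), against 52.0% of all genes tested, and its median was 0.16 against 0.01. The standard errors of the members had a median of 0.18. The median was 0.14 over the 49 large subunit members tested and 0.18 over the 31 small subunit members. These 80 genes were read from the same 8 libraries and are not independent of each other. Without the control 1 library, 72 of 80 members were above 0, the median was 0.12 against 0.03 for all genes, and 6 members (7.5%) had an unadjusted p below 0.05, against 15.6% of all genes. The control 2 library had the highest member levels of its group, so leaving it out tends by construction to raise the members' fold changes. Without it, 13 members (16.3%) had an unadjusted limma p below 0.05, against 11% of all genes. The median was then 0.24, and 20 members (25.0%) did not overlap between the groups, against 11.2% of all genes. With each library left out in turn, this was the 1 case of 8 in which the share by p was above that of all genes.

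**Figure D1:**
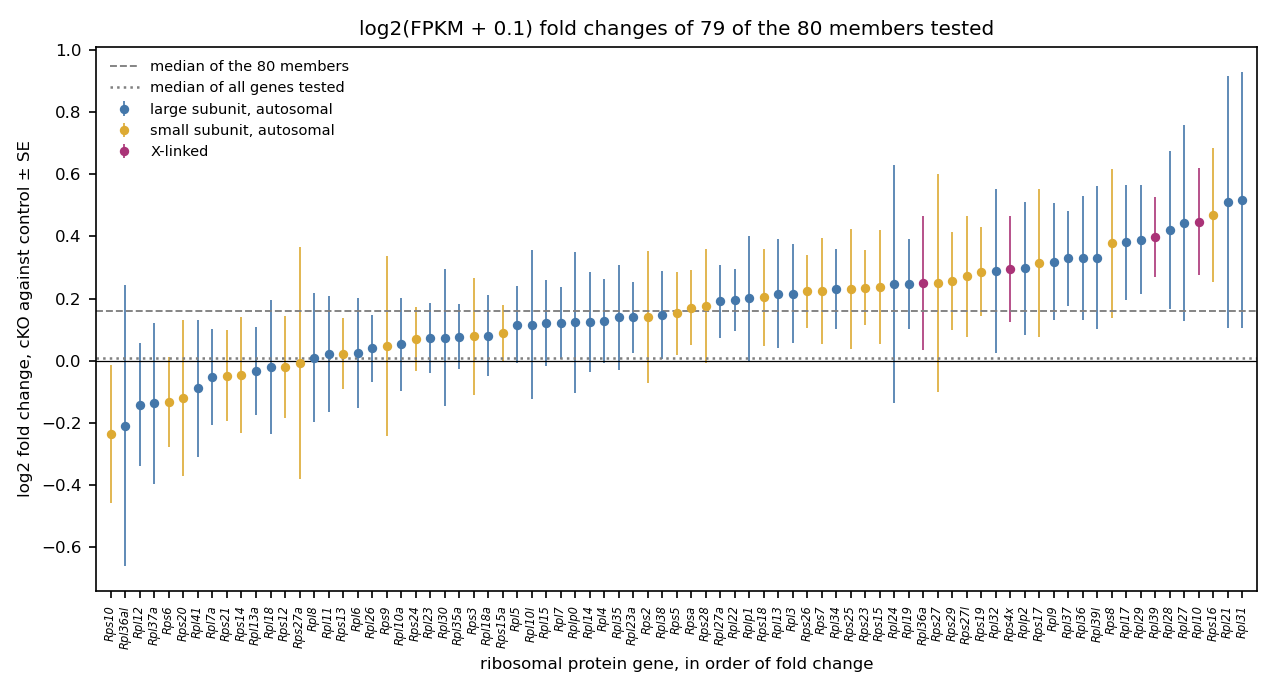
Log2 fold change of 79 of the 80 ribosomal protein genes tested (points, cKO against control on the log2(FPKM + 0.1) scale) with its standard error (lines), in order of fold change and coloured by subunit and X linkage. The dashed line is the median of the 80 members, 0.16, and the dotted line that of all genes tested, 0.01, and 65 of the 79 points lie above 0 while most error lines reach or cross the dashed line.

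The 4 X-linked members, Rpl10, Rpl39, Rpl36a and Rps4x, all had a higher mean in the cKO, and they included both members with an unadjusted p below 0.05. Their median log2 fold change was 0.35, against 0.08 over all 474 X-linked genes tested and 0.14 over the 76 autosomal members. Of the X-linked genes tested, 47 (9.92%) had an unadjusted limma p below 0.05, 37 of them higher in the cKO, and 0 had an adjusted p below 0.05.

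Rpl39, whose product lines the exit tunnel of the large subunit, read 20.8, 26.4, 29.8 and 25.4 FPKM in control 1 to 4 and 29.8, 33.0, 33.7 and 37.9 FPKM in cKO 1 to 4. The groups did not overlap, but the highest control (29.76 FPKM) and the lowest cKO library (29.78 FPKM) differed by less than the spread within either group. The log2 fold change was 0.40 with an SE of 0.13 and a limma p of 0.0110, which the adjustment over all genes raised to 0.308. Without the control 1 library it was 0.30 with an SE of 0.10 and a limma adjusted p of 0.214.

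Rpl10, which joins the large subunit late in its assembly, read 37.2, 58.4, 52.6 and 65.0 FPKM in the controls and 63.5, 68.2, 71.8 and 82.8 FPKM in the cKO. The highest control library lay above the lowest cKO library, and the lowest value was that of control 1. The log2 fold change was 0.45 with an SE of 0.17, a limma p of 0.0263 and an adjusted p of 0.399. Without control 1 it was 0.29 with an SE of 0.12 and a limma adjusted p of 0.28.

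Rps4x, a small subunit protein, read 44.0, 51.3, 37.5 and 62.7 FPKM in the controls and 51.8, 56.0, 56.5 and 73.4 FPKM in the cKO, and the groups overlapped. Its log2 fold change was 0.29 with an SE of 0.17 and a limma adjusted p of 0.588. Rpl36a, a large subunit protein, read 16.3, 26.6, 21.8 and 35.2 FPKM and 23.2, 28.6, 29.7 and 33.7 FPKM, a log2 fold change of 0.25 with an SE of 0.22 and an adjusted p of 0.740. Without control 1 that of Rpl36a was 0.06 with an SE of 0.17. In Rpl10, Rpl36a and Rps4x, control 4 and cKO 4 were the highest libraries of their groups.

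The autosomal copies were the more abundant transcript in 3 of the 4 pairs. Rpl10l, an intronless copy on chromosome 12 that takes the place of Rpl10 in meiotic cells, read 292, 243, 206 and 141 FPKM in the controls and 315, 201, 229 and 196 FPKM in the cKO. In all 8 libraries it was above Rpl10, by 2.17-fold in control 4 to 7.85-fold in control 1. Its log2 fold change was 0.12 with an SE of 0.24 and a limma adjusted p of 0.897, and without control 1 it was 0.27 with an SE of 0.21.

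Rpl39l, on chromosome 16, encodes the male germ cell form of the tunnel protein and read 54.4, 118, 114 and 80.6 FPKM in the controls and 126, 109.8, 113 and 95.2 FPKM in the cKO. It was 2.51 to 4.47 times as abundant as Rpl39, and its low value in control 1 was the lowest of the 8. The log2 fold change was 0.33 with an SE of 0.23 and an adjusted p of 0.657, and without control 1 it was 0.10 with an SE of 0.15.

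Rps4l, on chromosome 6, is listed in the table as a transcribed processed pseudogene and so is not one of the 81, but it read 190.4, 202, 165 and 121 FPKM in the controls and 204, 161, 183 and 154 FPKM in the cKO, above Rps4x in all 8 libraries. With genes of all biotypes in the fit, its log2 fold change was 0.07 with an SE of 0.18 and a limma adjusted p of 0.931. Rpl36al, on chromosome 12, was the exception, at 3.33, 1.14, 1.42 and 0.631 FPKM and 1.64, 0.833, 1.84 and 0.740 FPKM, below Rpl36a in every library. Its log2 fold change was -0.21, and 0.20 without control 1. Of its exon bases, 24.5% also lie in exons of Gm49383 on the same strand, so its level is uncertain.

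**Figure D2:**
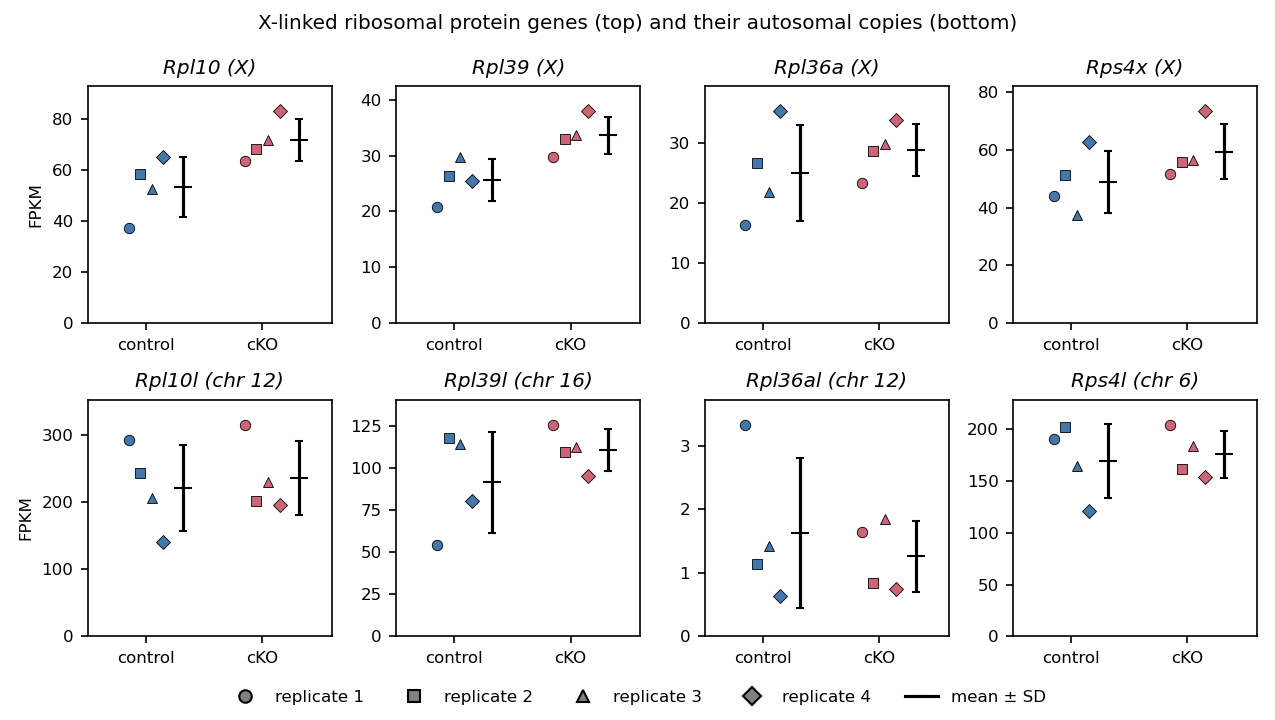
FPKM (linear axes from 0) of the 4 X-linked ribosomal protein genes in the top row and of their autosomal copies in the bottom row, with 1 marker per library and the mean ± SD of 4 libraries beside each group. The X-linked genes have the higher mean in the cKO, with overlap in 3 of the 4, and the groups of the copies overlap.

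The share of the autosomal copy in its pair was then compared, since a share within a library does not depend on how that library was scaled. It may still depend on the mix of cell types in the testis, which was not tested. Rpl10l made up 88.7%, 80.6%, 79.7% and 68.4% of the Rpl10 and Rpl10l FPKM in the controls and 83.2%, 74.7%, 76.2% and 70.3% in the cKO. The means were 79.4% ± 8.34 (SD, n = 4) and 76.1% ± 5.37 (SD, n = 4), with an exact permutation p of 0.543. Rpl39l made up 77.4% ± 4.06 and 76.6% ± 3.84 of its pair (exact permutation p = 0.83), and Rps4l 77.1% ± 7.49 and 74.5% ± 5.09 (exact permutation p = 0.60). Rpl36al made up 7.24% ± 6.73 and 4.35% ± 2.19 (exact permutation p = 0.60), and the 17.0% of control 1 was far above the 1.76% to 6.11% of the other controls.

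In each pair the mean share was lower in the cKO, with differences of -0.79 to -3.27 percentage points, which is less than the SD of either group in 3 pairs and less than that of the controls in the fourth. The tests were two-sided over 70 assignments of the libraries, the smallest p they allow is 0.0286, and the adjusted p over the 4 pairs was 0.80 to 0.83. The direction rested on single libraries in 2 pairs: in the Rpl36a pair the share was 0.36 points higher in the cKO without control 1, and in the Rpl39 pair 0.66 points higher without control 2 and 0.89 points higher without cKO 4. In the Rpl10 pair the difference of -3.27 points was -0.16 points without control 1, and in the Rps4x pair that of -2.55 points was -0.28 points without cKO 4. Without control 4 the differences in these pairs were larger, at -6.92 points for Rpl10 and -6.28 points for Rps4x.

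**Figure D3:**
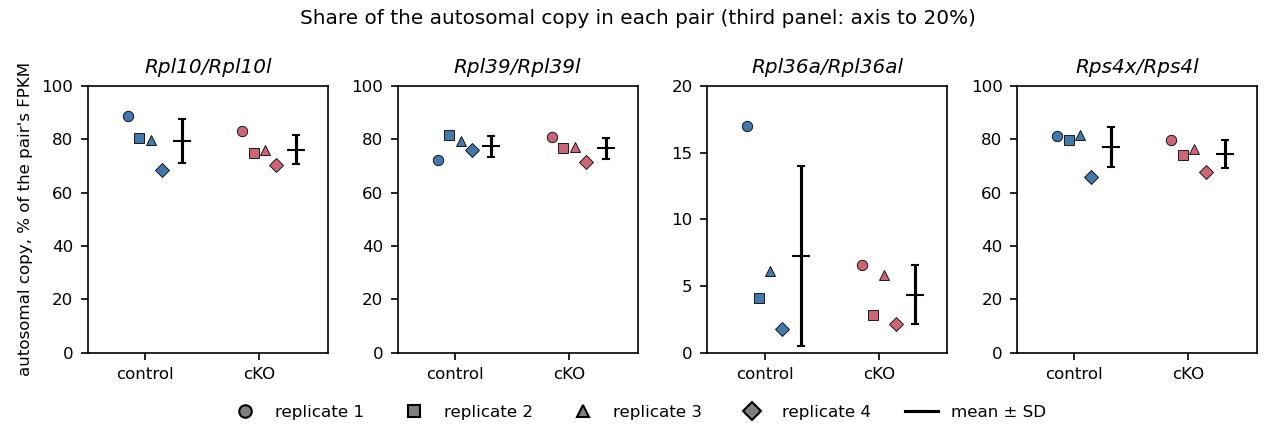
Share of the autosomal copy in the summed FPKM of each X-linked and autosomal pair, in percent, with 1 marker per library and the mean ± SD of 4 libraries; the Rpl36a panel ends at 20% and the others at 100%. The copies hold 65.9% to 88.7% in the other 3 panels, and the groups overlap in all 4.

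The members of highest level came from both subunits. Rplp1, Rplp2 and Rplp0 form the stalk of the large subunit, which recruits translation factors. Rplp1 was the most abundant member, at 1021, 1046, 813 and 722 FPKM in the controls and 1050.1, 982, 1052 and 1007 FPKM in the cKO. Its log2 fold change was 0.20 with an SE of 0.20 and a limma adjusted p of 0.777. Rplp0, the scaffold of the stalk and the second in level, read 349, 704, 613 and 526 FPKM and 592, 595, 608 and 522 FPKM, with control 1 the lowest of the 8. Its log2 fold change was 0.12, and -0.08 without control 1. With its pseudogene copies added, as described below, it was 0.21.

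Rplp2 read 150.5, 109.6, 87.2 and 69.7 FPKM and 142, 115, 118 and 119 FPKM, with control 1 the highest of the 8, so Rplp0 and Rplp2 lay at opposite ends in that library. The log2 fold change of Rplp2 was 0.30, and 0.49 with an SE of 0.15 and a limma adjusted p of 0.175 without control 1. Rpsa, a small subunit protein also known as a laminin receptor, read 125, 159, 125 and 138 FPKM and 146, 153, 156 and 158 FPKM, with a log2 fold change of 0.17, an SE of 0.12 and an adjusted p of 0.659. The groups overlapped in all 4 of these genes.

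Next in level were Rps15, Rpl4 and Rpl8. Rps15, of the small subunit head, read 280.03 to 459.5 FPKM in the controls and 405 to 452 FPKM in the cKO. Rpl4, with a loop that reaches the exit tunnel, read 367 to 423 and 419 to 428 FPKM. Rpl8, near the peptidyl transferase centre, read 264 to 522 and 348 to 412 FPKM. Their log2 fold changes were 0.24, 0.13 and 0.01, with limma adjusted p-values of 0.703, 0.790 and 0.991. Without control 1 those of Rps15 and Rpl8 were 0.10 and 0.17. The median of all 81 members was 107 FPKM, against 9.54 FPKM over all genes tested.

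After Rpl39 and Rpl10, the 8 members with the smallest p-values were all higher in mean in the cKO and had unadjusted limma p-values between 0.0510 and 0.0868, with adjusted values between 0.463 and 0.546. They were Rpl29, Rps16, Rpl37, Rpl17, Rps19, Rpl22, Rps23 and Rps26. Rps16, a small subunit protein whose tail reaches the transfer RNA, had the largest log2 fold change of the 8, 0.47 with an SE of 0.22. It read 88.1, 194, 162 and 139 FPKM in the controls and 189, 194, 197 and 196 FPKM in the cKO, so that control 2 lay within the cKO range and control 1 was the lowest of the 8. Without control 1 the log2 fold change of Rps16 was 0.25 with an SE of 0.12, below the 0.34 of Rpl17.

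Rpl29 read 87.0, 136, 126 and 99.7 FPKM and 130.2, 183, 136 and 135 FPKM, with cKO 2 above the other cKO libraries. Rps19, a protein whose human gene is mutated in Diamond-Blackfan anaemia, read 31.5, 49.7, 38.1 and 36.6 FPKM and 41.6, 46.8, 47.9 and 52.0 FPKM. Rps23, of the decoding centre, read 162, 184, 162 and 144 FPKM and 193, 194, 181 and 199 FPKM, with overlap by 1 control library. Rps26, at the messenger exit, read 173, 200, 171 and 167 FPKM and 212, 199.7, 212 and 204 FPKM, where control 2 (199.9 FPKM) passed the lowest cKO library.

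Rpl37, a large subunit protein, read 42.2, 69.0, 58.7 and 47.2 FPKM and 61.6, 69.8, 65.8 and 71.2 FPKM, a log2 fold change of 0.33, and of 0.22 without control 1. Rpl17, at the exit of the tunnel, read 55.8, 73.1, 68.8 and 50.6 FPKM and 66.2, 88.6, 65.5 and 106 FPKM, a log2 fold change of 0.38. Its row held only 25.0% of the fragments of gene and pseudogene copies together, and with the copies added the log2 fold change was 0.20. Rpl22 and Rpl34 were, with Rpl39, the tested members whose groups did not overlap. Rpl22, a large subunit protein dispensable for most translation, read 58.4, 65.03, 52.5 and 55.7 FPKM and 66.8, 65.08, 66.0 and 66.6 FPKM, a log2 fold change of 0.20 with an SE of 0.10. Rpl34, named after its values were seen, read 48.7, 69.7, 68.9 and 63.9 FPKM and 74.3, 73.1, 71.1 and 73.5 FPKM, a log2 fold change of 0.23 with an SE of 0.13, and of 0.11 with an SE of 0.08 without control 1. Control 2 lay within 0.1 FPKM of the cKO range in Rpl22.

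Rps27l, a paralogue of Rps27 known as a target of p53, read 46.8, 81.7, 89.8 and 83.7 FPKM and 92.4, 83.1, 96.1 and 82.8 FPKM, with control 1 alone below the rest and a limma adjusted p of 0.671. Its log2 fold change was 0.27, and 0.06 without control 1. Rpl3l, the form of Rpl3 known from striated muscle, was the least abundant member. It read 1.44, 1.38, 2.14 and 1.23 FPKM in the controls and 1.22, 0.877, 0.686 and 1.18 FPKM in the cKO, and it was the member left out by the filter, with a cKO mean of 0.992 FPKM. It was also the member whose values were all lower in the cKO, although control 4 (1.226 FPKM) and cKO 1 (1.224 FPKM) were nearly equal. With a filter at a mean of 0.1 FPKM over all libraries its log2 fold change was -0.59, with an SE of 0.23 and a limma adjusted p of 0.397.

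The ribosomal protein genes varied more among the controls than among the cKO. The median coefficient of variation was 23.4% over 4 control libraries and 6.69% over 4 cKO libraries, and it was larger in the controls for 75 of 81 members. Over all genes tested the medians were 17.2% and 9.43%, with the controls larger in 81.0%. Without control 1 the median of the members in the controls was 14.97%, larger than in the cKO for 65 of 81.

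Control 1 held the lowest value of the 8 libraries in 37 of 81 members and the highest in 22 of 81, against 23.6% and 34.2% of all genes tested. It lay more than 1.5-fold from the median of the other controls in 34 of 81 members (42.0%), 20 lower and 14 higher, against 23.6% of all genes. Control 4 lay that far from its group in 11 members (13.6%), against 10.6% of all genes. Each remaining library did so in 3 to 5 members (3.70% to 6.17%), against 1.32% to 6.14% of all genes.

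Some members that control 1 separated most were chosen for mention after their values were seen. Rpl31, beside the tunnel exit, read 28.9 FPKM in control 1 and 98.1 to 131 FPKM in the other controls. In the other direction, Rpl37a read 298 FPKM against 120.3 to 150.02 FPKM, Rps9 229 FPKM against 76.7 to 121 FPKM, and Rpl41, the shortest of the ribosomal proteins, 589 FPKM against 293 to 337 FPKM.

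The members together took 1.78%, 2.17%, 1.83% and 1.81% of nuclear-encoded fragments in the controls and 2.08%, 2.06%, 2.11% and 2.14% in the cKO. Controls 1, 3 and 4 lay below all cKO libraries and control 2 lay above them, and the means were 1.90% ± 0.18 (SD, n = 4) and 2.10% ± 0.04 (SD, n = 4). Of the markers summed above, a higher mean in the cKO was found for 7 of 8 spermatogonial, 1 of 10 spermatocyte, 3 of 7 spermatid, 7 of 8 Sertoli cell, 4 of 5 Leydig cell and 4 of 5 erythroid genes, and for 4 of 4 each of peritubular, macrophage and endothelial genes. Their part in these values was not tested.

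**Figure D4:**
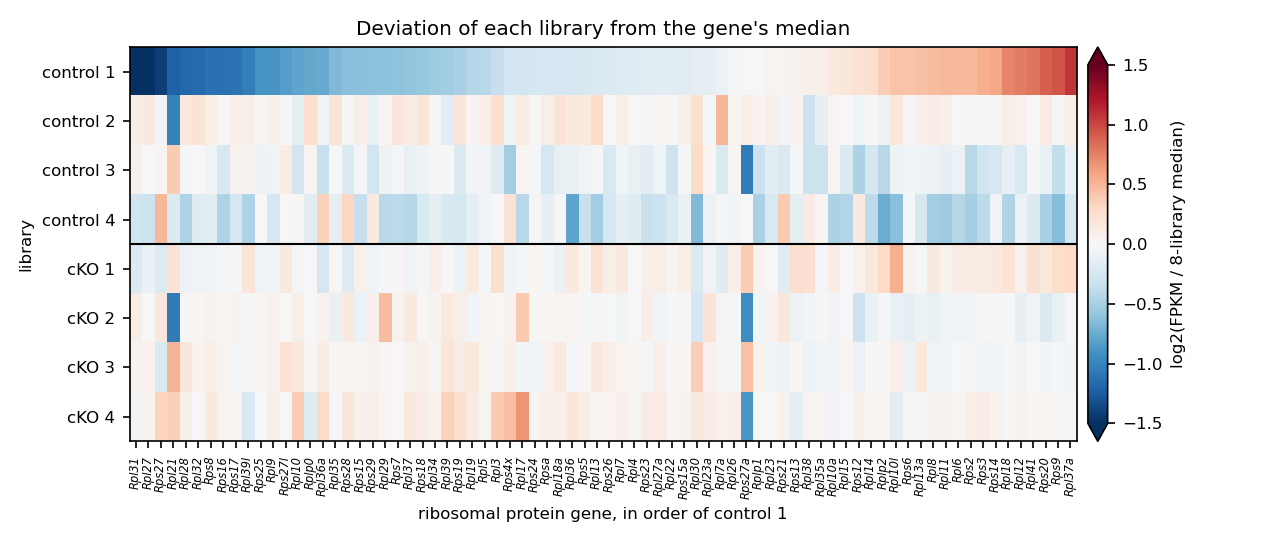
Deviation of each library (rows) from the gene's median over 8 libraries, as log2 of the FPKM ratio, for 76 of the 77 members with a mean above 5 FPKM (columns, in order of their value in control 1); colours end at 1.5 in either direction. The control 1 row runs from far below to far above the median, and the cKO rows are pale apart from a few genes such as Rps27a and Rpl21.

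The lowest levels belonged to members whose exons lie partly in another annotated gene. Exon bases on the same strand as an exon of another gene made up 47.0% of Rpl24, which also lies in the readthrough gene Gm28037, 35.4% of Rpl13a, 24.5% of Rpl36al and 20.6% of Rps10, and at most 14.5% of any other member. These 4 and Rpl3l were the 5 members of lowest level. Rpl24 read 0.964 to 2.15 FPKM in the controls and 0.691 to 2.55 FPKM in the cKO, Rps10 2.67 to 5.84 and 2.62 to 3.70 FPKM, and Rpl13a 6.49 to 10.4 and 7.26 to 8.53 FPKM. Their log2 fold changes were 0.25, -0.24 and -0.03, with limma adjusted p-values of 0.860, 0.762 and 0.954, and without control 1 they were 0.45, -0.02 and 0.09. Their products are ribosomal proteins like those of the other members, and these values are uncertain as levels.

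Ribosomal protein genes also have many processed pseudogenes. Named or sequence-matched copies with a row of their own numbered 568, for 72 members, and 93.4% of the fragments of members and copies together lay on the members. The member held over 90% of its family in 62 of 81, and under 50% in 4: Rps10 with 9.72%, Rpl17 with 25.0%, Rpl24 with 34.4% and Rpl21 with 41.7%. Sequence shared with other genes over stretches of 100 bases or more was found in 73 of 81 members, with a median of 24.1% of such stretches per member, and reads from it may be split between rows.

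Adding the copies to their member changed the picture of some members. Rps10 then read 27.7 to 37.8 FPKM in the controls and 36.2 to 38.6 FPKM in the cKO, and its log2 fold change went from -0.24 to 0.16. The share of Rpl17 in its family ran from 16.5% in control 4 to 39.5% in control 1. With its copies Rpl17 read 141 to 328 FPKM in the controls and 271 to 310 FPKM in the cKO. Its log2 fold change went from 0.38 to 0.20, and its unadjusted limma p from 0.0677 to 0.456. The coefficient of variation of Rpl21 over the 8 libraries went from 44.7% to 21.9%. Rpl21, a large subunit protein, had read 7.07, 8.08, 21.5 and 14.2 FPKM in the controls and 18.8, 7.85, 23.3 and 21.0 FPKM in the cKO, so that low and high libraries were found in both groups. Rplp0 held 95.3% to 99.6% of its family in the controls and 89.3% to 94.9% in the cKO. Its copy Gm8730 read 2.08, 4.22, 4.43 and 44.3 FPKM in the controls and 54.4 to 106 FPKM in the cKO. With the copies added, the log2 fold change of Rplp0 was 0.21 with an SE of 0.23. The cause of this split was not tested.

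Rps27a, which encodes a ribosomal protein fused to ubiquitin, showed such a split too, at 105, 112, 50.5 and 104 FPKM and 136, 55.0, 142 and 57.0 FPKM. It kept it with its copies added, at 61.3 to 119 FPKM and 66.0 to 146 FPKM. Over all 80 members the sums with copies gave a median log2 fold change of 0.18, 2 members (2.50%) with an unadjusted limma p below 0.05, against 10.9% of all genes, and 0 with an adjusted p below 0.05.

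**Figure D5:**
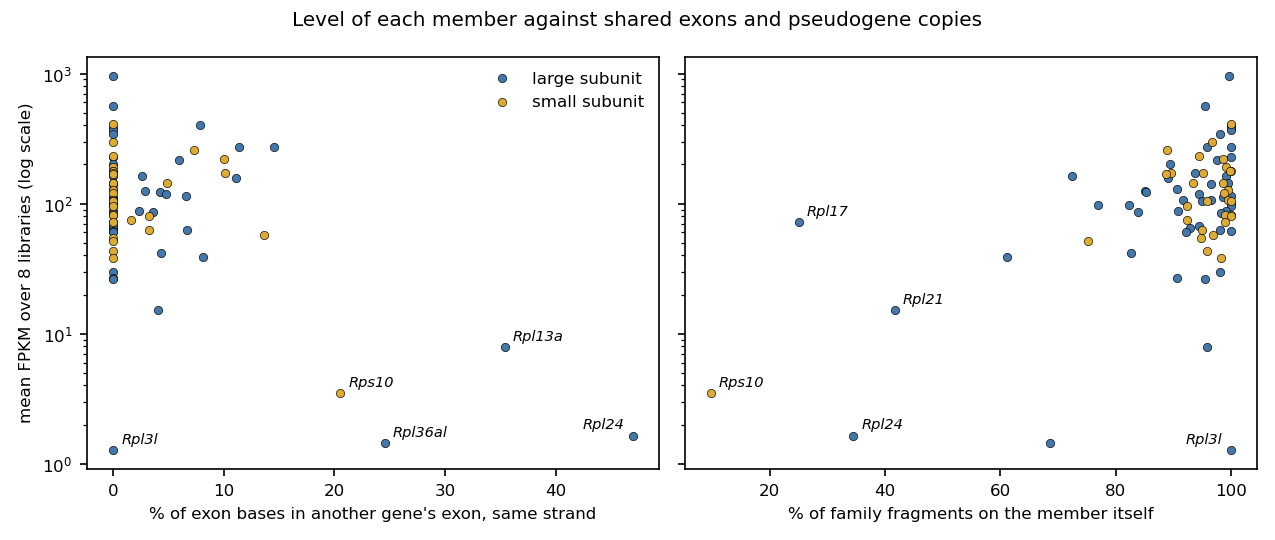
Mean FPKM over 8 libraries (log axis) of each of the 81 members against the share of its exon bases that lie in another gene's exon on the same strand (left) and against its share of the fragments of member and pseudogene copies together (right). The 4 members with over 20% of shared exon bases lie below 10 FPKM, and 4 members hold under 50% of the fragments of their family.

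Other genes of the ribosome and its assembly were read from the same fit, by counts of unadjusted limma p-values below 0.05 beside the 10.9% of all genes, and none of them had an adjusted p below 0.05. Of 7 tested genes for cytosolic ribosomal proteins that the symbol rule leaves out, 0 passed and 5 were above 0, with a median log2 fold change of 0.14. The smallest p-values were those of Rpl7l1, a paralogue of Rpl7 (log2 fold change 0.18, SE 0.09), and Rack1, a scaffold on the small subunit (0.14, SE 0.11). Of 77 mitochondrial ribosomal proteins, which serve the organelle's own ribosomes, 2 passed, Mrpl14 and Mrpl23, both higher in the cKO, with log2 fold changes of 0.36 and 0.34, and the median was 0.04.

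Of 15 genes for RNA polymerase I and its factors, which transcribe the ribosomal RNA, 2 passed in opposite directions. The polymerase subunit gene Cd3eap was at 6.88 ± 0.46 FPKM (SD, n = 4) in the controls and 8.15 ± 0.39 in the cKO, and the subunit gene Twistnb at 6.89 ± 0.49 and 5.85 ± 0.15 FPKM. Their log2 fold changes were 0.24 and -0.23. Of 34 large subunit assembly factors 1 passed, Sbds, which readies the new subunit for translation, with a log2 fold change of -0.24 and an SE of 0.09, and the next, Las1l, an X-linked pre-rRNA processing factor, had a log2 fold change of 0.18. The median of that list was -0.06. Of 11 small subunit assembly factors 0 passed, with a median of -0.10, and Ltv1 and Bysl had the smallest p-values, with log2 fold changes of -0.18 and -0.17.

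Of 37 genes of the snoRNPs and the early processing complex 0 passed, with a median of 0.04, and Wdr43 and Nhp2 led with 0.18 and 0.25. Of 14 elongation factors and other genes whose mRNAs carry the pyrimidine tract 0 passed, with a median of 0.07, and Tpt1 and Eif3f led with 0.26 and 0.18. Of 11 genes of mTORC1 and its control of these mRNAs 1 passed: Eif4ebp1, a translation repressor that mTORC1 inactivates, had a log2 fold change of 0.71 with an SE of 0.19 and an adjusted p of 0.229, and its groups did not overlap, at 7.19 ± 2.09 FPKM and 11.4 ± 0.62 FPKM (SD, n = 4). Mlst8, a subunit of mTORC1, followed with 0.20.

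Without control 1, where 15.6% of all genes had an unadjusted limma p below 0.05, the genes that passed were Cd3eap alone for RNA polymerase I, Mrps18b alone for the mitochondrial ribosomal proteins, Sbds and Grwd1 for large subunit assembly, Nhp2 for early processing, and Eif4ebp1 and Mtor for mTORC1, with 0 in the other 3 lists. The log2 fold changes of Rack1, Wdr43, Ltv1, Tpt1 and Mlst8 were then 0.08, 0.11, -0.07, 0.12 and 0.13. With all 8 libraries in the fit, the medians of the assembly lists lay below 0 and that of the ribosomal proteins above it, and this difference was not tested.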

How the data were processed

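Bulk RNA-seq libraries of 8 whole testes were sequenced as paired ends and normalised with Novomagic by the authors, who deposited FPKM values per gene. Per the labels the build was GRCm38; aligner and counter are not given in the sources used here. FPKM times gene length was a whole number of fragments in 100% of the values checked (tolerance 0.02), and depth was recovered from it. The check covered the lower values above 0, 22508 to 24646 per library. Values of many fragments, those of many members among them, were not checked and were rounded. The authors' count test needs counts, so limma 3.58.1 in R 4.3.3 (lmFit, eBayes with trend) was run on log2(FPKM + 0.1), which understates changes of low genes, keeping protein-coding genes whose control mean and cKO mean both exceeded 1 FPKM, and p was adjusted by Benjamini-Hochberg over all of them. Pair shares were tested by exact permutation. The script was tested on simulated data with 200 genes changed, at a limma adjusted p below 0.05. For a log2 change of 1.5 it recovered 100% of them, with 3 to 13 false calls. For a log2 change of 0.5 it recovered 24.5% at a dispersion of 0.02 and 1% at 0.05, so changes of that size can be missed. Exons, transcripts and coding sequences came from GENCODE vM21 and promoters from RefSeq. The members and lists were chosen with earlier results of these data known.

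Named were the X-linked members and their copies, other paralogues ending in l, Rplp0 to Rplp2, Rpsa, the 10 members of smallest p, the 5 of highest and the 5 of lowest level, members that fail the filter, and 2 genes per list. The labels name an RNeasy kit for the RNA and the study's methods Trizol. The values of 1 member are not reported here, and it was left out of 2 of the figures.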

Additional observations from a re-analysis of the deposited data

Results flagged for a closer look

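Within 4 libraries of a group, a value was flagged where its gap to the nearest other was above Dixon's critical share of the group's range, which chance does in about 1 of 20 groups. Of 66 groups examined, 4 were flagged, where chance gives 3.3. Rpl29 read 183 FPKM in cKO 2, against 130.2 to 136 FPKM in the other cKO libraries. Rplp2 read 142 FPKM in cKO 1, against 115 to 119 FPKM. The share of Rps4l in its pair with Rps4x was 65.9% in control 4, against 79.7% to 81.5% in the other controls. The members took 2.17% of nuclear-encoded fragments in control 2, against 1.78% to 1.83% in the other controls. Over all 81 members, 13 of 162 groups were flagged, 5 of them at control 1, where chance gives 8.1.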

How the results depend on the processing

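Under 22 alternatives, 1 of them (members summed with pseudogene copies) chosen after seeing the data, 0 members were called and the lowest adjusted p was 0.0751. The median log2 fold change stayed above 0, from 0.08 with array weights to 0.26 with rescaling to TPM without mitochondrial genes, where the median of all genes was 0.11. The 2 members with an unadjusted p below 0.05 became 5 without the eBayes trend (6.25%, against 10.7% of all genes), 5 with median centring (6.25%, 11.1%), 4 with no filter (4.94%, 9.05%), 6 with TPM without mitochondrial genes (7.5%, 9.36%), 10 with TPM (12.5%, 10.4%) and 8 with voom (10%, 10.8%). The 3 members without overlap became 6 (7.5%) with either TPM scaling, against 5.62% (no mitochondrial genes) and 6.14% of all genes. Leaving out 1 library gave 1 to 13 members with an unadjusted p below 0.05 (6 without control 1, 13 without control 2, 5 without control 4 and 1 without cKO 4), 3 to 20 without overlap (20 without control 2, 6 without control 4, 6 without cKO 1, 7 without cKO 2 and 5 without cKO 3), and medians of 0.12 to 0.24. All genes then ran from 5.65% to 15.6% and, without overlap, from 7.10% to 15.4%; the share of members was above that of all genes for p in 1 of 8 cases (without control 2) and for overlap in 2 of 8 (without control 2 and without cKO 2). The cause was not tested.

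The difference in the copy's share, in percentage points, ran from -6.92 to -0.16 for Rpl10l, from -2.45 to 0.89 for Rpl39l, from -4.71 to 0.36 for Rpl36al and from -6.28 to -0.28 for Rps4l with 1 library left out. It reversed for Rpl39l without control 2 (0.66) and without cKO 4 (0.89), and for Rpl36al without control 1 (0.36). Over the 44 alternative values the exact permutation p was 0.0857 to 1. The floor was 0.125 for sign flips and lower than that at 3 against 4.

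Libraries of the same replicate number were not taken as pairs, because the labels do not state pairs. The study used littermates as controls, and whether equal numbers mark littermates is not given. The correlations of their deviations were all positive, at 0.29, 0.13, 0.08 and 0.41, and 5 of 8 libraries correlated best with their own number. With the replicate number as a block, 7 members had an unadjusted p below 0.05 (8.75%, against 14.6% of all genes; Rpl10, Rpl29, Rpl37, Rpl39, Rps16, Rps19 and Rps4x), with 0 called, a median of 0.16 and a lowest adjusted p of 0.161. The block left the differences in share at -3.27, -0.79, -2.89 and -2.55 points. With 4 libraries a group, the median SE of 0.18 limits what could be detected.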
